A study of Mus musculus with 2 samples.

Results

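The 6 genes described here encode subunits of gamma-secretase, and were chosen by symbol among the 55536 annotated genes of the gene tables: Psen2, Ncstn, Aph1a, Aph1b, Aph1c and Psenen. All 6 were found in both libraries, and the choice was made with earlier results of these data known. The data are total RNA sequencing of gastrocnemius, the large muscle of the calf, from adult female mice aged 8 to 10 months of a 5xFAD and CAST cross. Both tissue samples form 1 group, so no control genotype or second tissue is compared. They carry biological replicate numbers 1 and 2 and separate sample identifiers, but 1 shared donor identifier, so it is not settled whether they came from separate animals, and the spread between them may be technical. The 5xFAD line carries mutated human transgenes of familial Alzheimer's disease under Thy1 promoter elements, which act mainly in neurons, and CAST is a wild-derived inbred strain. The human transgenes are not among the annotated mouse genes, and where their reads were assigned was not tested. How far CAST alleles, read against an mm10 reference, alter the values of these 6 genes was not tested.

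Gamma-secretase is a membrane protease that cuts its substrates within the membrane after their outer part has been shed. A presenilin carries the catalytic aspartates, nicastrin holds the large extracellular domain, an APH-1 protein acts as a scaffold during assembly, and PEN-2, the product of Psenen, completes the complex and promotes the cutting of presenilin into its active fragments. Cleavage of Notch receptors releases their signalling domain, and cleavage of the amyloid precursor protein releases amyloid beta. In skeletal muscle, Notch signalling is best known for keeping satellite cells, the muscle stem cells, quiescent.

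Sequences of 3 kinds come before the values, because they bear on what short reads can tell apart. The first set is the coding end of the 2 main Aph1a transcripts, which share 734 coding bases and then part. The letters before the fork are in lower case, and capitals mark the bases after it, with the stop codon included (mm10, plus strand, chr3:95896332-95896371 for Aph1a-201 and chr3:95896332-95896758, across an intron, for Aph1a-202). Aph1a-201 has 247 codons and Aph1a-202 has 265.
Aph1a-201: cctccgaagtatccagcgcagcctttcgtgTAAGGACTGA
Aph1a-202: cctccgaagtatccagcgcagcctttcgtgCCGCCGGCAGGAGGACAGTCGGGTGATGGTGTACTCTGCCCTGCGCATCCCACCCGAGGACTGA

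The second set is the first 240 coding bases of Aph1b-201 and Aph1c-202, paralogs that lie side by side on chromosome 9, and capitals mark the bases that differ between them (mm10, minus strand, chr9:66794114-66795365 and chr9:66833203-66834598, both across an intron). These bases hold 23 of the 29 substitutions between the coding sequences, which also differ by 3 gap bases and are 95.9% identical. Downstream, an identical stretch of 341 bases offers nothing to separate the genes. The coding sequence of Aph1a-202 was 59.2% identical to that of Aph1b-201 and 58.9% identical to that of Aph1c-202.
Aph1b-201: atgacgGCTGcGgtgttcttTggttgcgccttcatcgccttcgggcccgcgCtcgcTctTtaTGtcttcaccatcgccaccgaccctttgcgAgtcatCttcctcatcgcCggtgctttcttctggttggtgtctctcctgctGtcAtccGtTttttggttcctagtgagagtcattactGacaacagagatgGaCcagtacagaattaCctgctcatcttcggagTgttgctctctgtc
Aph1c-202: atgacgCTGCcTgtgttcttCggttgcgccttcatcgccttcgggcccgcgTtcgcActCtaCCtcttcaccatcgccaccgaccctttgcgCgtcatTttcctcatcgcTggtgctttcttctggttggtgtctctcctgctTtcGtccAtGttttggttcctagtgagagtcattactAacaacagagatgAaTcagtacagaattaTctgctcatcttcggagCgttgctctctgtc

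The third set is the 250 bases before each of the 2 Psen2 start sites that RefSeq lists, because the quantifications gave most Psen2 RNA of library 1 to different start sites. Capitals mark CG dinucleotides (RefSeq, GRCm38.p6, minus strand, chr1:180256301-180256550 before the start of Psen2-205 and chr1:180245951-180246200 before that of Psen2-201). The window before Psen2-205 holds 15 CG dinucleotides and the window before Psen2-201 holds 7, against a median of 6 and an upper quartile of 16 over 32851 windows of the same length.
Psen2-205 start: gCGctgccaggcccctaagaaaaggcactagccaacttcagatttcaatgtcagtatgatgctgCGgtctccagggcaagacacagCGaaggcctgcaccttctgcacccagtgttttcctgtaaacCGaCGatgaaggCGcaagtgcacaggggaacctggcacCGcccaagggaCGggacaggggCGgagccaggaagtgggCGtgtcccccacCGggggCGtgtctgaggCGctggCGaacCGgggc
Psen2-201 start: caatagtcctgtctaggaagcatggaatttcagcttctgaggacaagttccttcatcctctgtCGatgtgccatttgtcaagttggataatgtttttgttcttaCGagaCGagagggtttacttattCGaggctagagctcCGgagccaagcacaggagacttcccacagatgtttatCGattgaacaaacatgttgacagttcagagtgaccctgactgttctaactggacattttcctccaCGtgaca

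The libraries held 35594289 and 34541905 expected counts, so a gene with no count could still reach 0.0843 and 0.0869 CPM, the level of 3 counts. Fast-fibre marker genes stood between 11485 and 17981 TPM, a share of all transcripts that is corrected for transcript length, and every gene of that list was detected. Of the neuron markers 0 of 4 reached TPM 1, and of the satellite cell markers 0 of 2. In whole tissue, fewer cells of a type and less RNA per cell cannot be told apart. Unless a second is named, values are from the first of 2 quantifications that the authors deposited, as mean ± SD over n = 2 libraries. An exact sign-flip test over 2 libraries cannot go below p = 0.5, so no test was made.

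The 6 genes spanned a wide range of levels and held 88.9 ± 2.64 TPM together. Psenen stood highest, Aph1a and Ncstn were intermediate, Psen2 was low, and Aph1b and Aph1c were below TPM 1. Counting a gene as detected at TPM of at least 1 in both libraries, 4 of the 6 were detected, against 44.5% of all annotated protein-coding genes. The order Psenen, Aph1a, Ncstn, Psen2, Aph1b, Aph1c was the same in both libraries and both quantifications, and no neighbours in that order overlapped within a quantification.

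**Figure D1:**
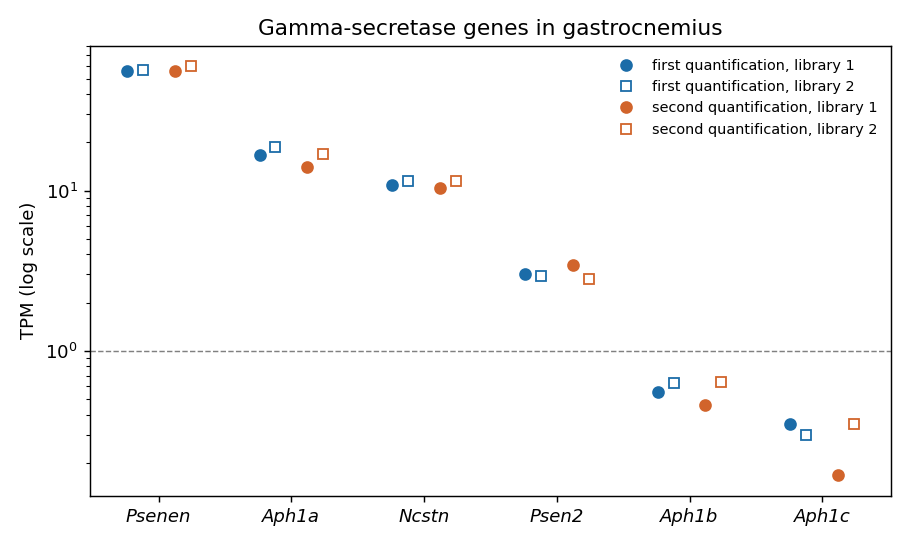
TPM of each gamma-secretase gene on a log axis, with filled circles for library 1, open squares for library 2, blue for the first quantification and orange for the second. The dashed line marks TPM 1, and only Aph1b and Aph1c lie under it.

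Psen2, a presenilin and thus a catalytic subunit, lies on chromosome 1 at 180227004 to 180263438 on the minus strand (mm10). It stood at 3.01 TPM in library 1 and 2.93 TPM in library 2, from 159 and 143 expected counts. The libraries were close together, and the mean of 2.97 ± 0.0566 TPM lay above 23.1% of the 10109 protein-coding genes with mean TPM of at least 1, whose median was 7.58 TPM. The second quantification gave 3.42 and 2.82 TPM.

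Ncstn encodes nicastrin, and lies on chromosome 1 at 172066013 to 172082795 on the minus strand. It stood at 10.8 and 11.5 TPM from 898 and 805 expected counts, a mean of 11.1 ± 0.488 TPM, above 61.5% of those protein-coding genes. The second quantification gave 10.4 and 11.5 TPM, so the quantifications overlapped. No 100-base stretch of any Ncstn or Psen2 transcript occurs in a transcript of another gene on the same strand.

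Aph1a, the main APH-1 gene of this muscle by TPM, lies on chromosome 3 at 95893969 to 95898288 on the plus strand. It stood at 16.7 and 18.7 TPM from 1008 and 932 expected counts, a mean of 17.7 ± 1.46 TPM, above 73.6% of those protein-coding genes. The second quantification was lower in both libraries, at 14.1 and 16.9 TPM. Aph1a shares 699 of its 3581 distinct 100-base windows with Gm15429, a processed pseudogene on chromosome 1 at 161726242 to 161727489. Gm15429 took 0 and 27.2 expected counts in the first quantification, and 61.3 and 26.7 estimated counts in the second, so the reads given to it depended on the quantification most in library 1. The role of these shared windows in the Aph1a values was not tested.

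Aph1b and Aph1c are APH-1 paralogs on the minus strand of chromosome 9, at 66775202 to 66795490 and 66814994 to 66834726. Aph1b stood at 0.55 and 0.63 TPM from 69.7 and 79.6 expected counts. Aph1c stood at 0.35 and 0.30 TPM from 28.3 and 31.4 expected counts, so its counts were higher in library 2 while its TPM was lower. Both genes had counts in both libraries, far above the 3-count floor, but neither reached TPM 1. They share 451 windows, 8.58% of those of Aph1b and 8.76% of those of Aph1c, among them the identical coding stretch described above. Their reads can therefore be split unequally by an assignment method, and their sum is given as well, at 0.915 ± 0.0212 TPM. In the first quantification the deposited SD of counts over sampled read assignments was 1.39 in library 1 and 1.6 in library 2 for both genes.

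Within the APH-1 genes, Aph1a held 95.1 ± 0.278% of summed TPM, Aph1b 3.17 ± 0.0523% and Aph1c 1.76 ± 0.330%. The second quantification gave 95.1 ± 0.908% for Aph1a, 3.33 ± 0.327% for Aph1b and 1.55 ± 0.581% for Aph1c. Aph1a thus stood 19.3 ± 1.14 times above Aph1b and Aph1c together. The ratio of Aph1b to Aph1c was 1.57 and 2.10 in the libraries, and 2.73 and 1.82 in the second quantification. Aph1b was the higher of the pair each time, while the libraries changed places between quantifications.

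Psenen encodes PEN-2, the smallest subunit, and lies on chromosome 7 at 30561863 to 30563627 on the minus strand. It stood at 55.7 and 56.7 TPM from 992 and 879 expected counts, a mean of 56.2 ± 0.728 TPM, above 91.1% of the same protein-coding genes. The second quantification gave 56.1 and 59.7 TPM. Psenen shares 207 of its 1474 windows with Gm12396, a processed pseudogene on chromosome 4 at 40775259 to 40775564, which took 0 counts in both quantifications. By the deposited posterior mean, taken over sampled read assignments, Gm12396 stood at 1.54 and 2.7 TPM. Psenen and Gm12396 had the same SD of counts over those assignments, at 8.92 and 10.9. The role of the shared windows in the Psenen values was not tested.

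Psenen, Aph1a and Ncstn had like numbers of expected counts in each library, and their TPM values spread out because TPM divides by effective length. That length was 586 and 590 bases for Psenen, 1990 and 1893 for Aph1a, and 2734 and 2665 for Ncstn. Per length, Psenen stood 5.04 ± 0.155 times above Ncstn and 3.03 ± 0.201 times above the summed APH-1 genes. The summed APH-1 genes stood 1.67 ± 0.0596 times above Ncstn. Ncstn stood 3.75 ± 0.236 times above Psen2, and Psenen 18.9 ± 0.606 times above it, ratios that describe these genes only and not the presenilin supply of the complex. In the second quantification the ratio of Psenen to Ncstn was 5.28 ± 0.143 and that of the summed APH-1 genes to Ncstn 1.48 ± 0.0978. RNA ratios are not subunit ratios of the protein complex, which was not measured.

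Between libraries the 4 detected genes differed little. Of these, 0 differed by at least 1.5-fold between libraries, against 3.07% of 10105 protein-coding genes with mean TPM of at least 1. That share is too small to show in 4 genes, so nothing is read from the count. With counts scaled by TMM, a trimmed mean of ratios over all genes, the log2 ratio of library 2 over library 1 was -0.13 for Psenen, with a 95% Clopper-Pearson interval of -0.27 to -0.0024. It was -0.07 for Aph1a (-0.20 to 0.06), -0.12 for Ncstn (-0.26 to 0.02) and -0.11 for Psen2 (-0.45 to 0.22). Aph1b was at 0.23 (-0.25 to 0.72) and Aph1c at 0.19 (-0.60 to 0.98), so at these depths a difference of 1.5-fold could not be told from none for Aph1b and Aph1c. These intervals cover counting error only, and the libraries differed by more than sampling noise over all genes (chi-square of 18.6 per degree of freedom over 15960 genes). The median absolute log2 ratio over the protein-coding genes was 0.11, about the size seen for the 4 detected genes. With deposited TPM, which shifts the median log2 ratio of protein-coding genes to 0.18, the ratios of Psenen, Aph1a and Ncstn turned to 0.03, 0.17 and 0.09, all below that shift, and that of Aph1c to -0.22.

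**Figure D2:**
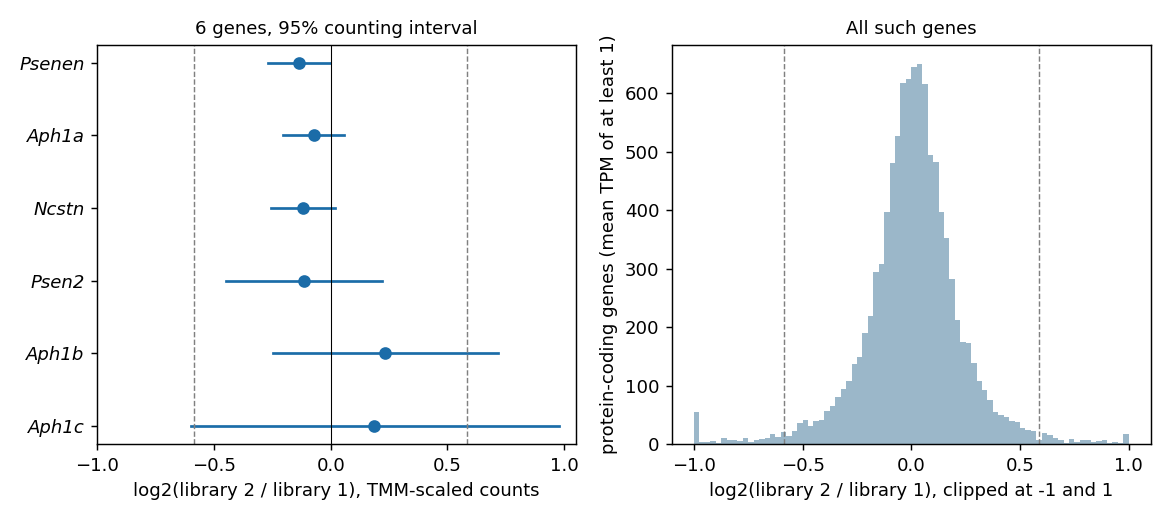
Left, log2 ratio of library 2 over library 1 from TMM-scaled counts for each gene, with points for the ratio and lines for the 95% counting interval; right, the number of protein-coding genes with mean TPM of at least 1 at each ratio, with ratios beyond -1 or 1 drawn at the edge. Dashed lines mark 1.5-fold, and all 6 points lie between them.

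Averaged over both libraries, the quantifications gave like gene levels. After the median over protein-coding genes was removed, the second stood at 0.822 times the first for Aph1c, 0.904 for Aph1a, 0.957 for Aph1b, 1.02 for Ncstn, 1.07 for Psenen and 1.09 for Psen2. On these means 0 of the 6 genes differed by 1.5-fold, against 3.63% of 10103 protein-coding genes with mean TPM of at least 1. That background leaves out genes as low as Aph1b and Aph1c. In single libraries Aph1c moved in opposite directions, from 0.35 to 0.167 TPM in library 1 and from 0.30 to 0.350 TPM in library 2. Below the gene level the quantifications parted for some genes and not for others.

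The 6 genes have 34 annotated transcripts, of which 8 had under 0.005 counts in both libraries and both quantifications and 15 reached 5% of their gene's TPM on average in either. Psenen and Ncstn each came mostly from 1 transcript. Psenen-201 held 95.3 and 93.5% of Psenen TPM in the first quantification and 98.1 and 83.9% in the second. The rest of the second quantification went mainly to Psenen-203, at 1.93 and 15.7%, which starts elsewhere but has the same coding sequence of 101 codons. Ncstn-201, with 708 codons, held 89.0 and 92.3% of Ncstn TPM, and 82.8 and 83.0% in the second quantification. Ncstn-204, annotated as a target of nonsense-mediated decay, held 7.40 and 1.04%, and 8.17 and 4.19% in the second. In both quantifications library 1 was higher for Ncstn-204, but its 70.6 expected counts in library 1 carry a deposited posterior SD of 24.8.

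Aph1a RNA was split between both coding ends printed above. Aph1a-202, with the longer coding sequence, held 61.0 and 63.9% of Aph1a TPM, and 61.6 and 68.0% in the second quantification. Aph1a-201, with the shorter one, held 37.1 and 30.2%, and 34.0 and 28.9% in the second. By TPM Aph1a-202 led in both libraries and both quantifications, with no overlap between the forms. As a transcript it is the shorter, at 1601 bases against 2863. Before division by length, Aph1a-201 had more counts in library 1, at 519 against 463, and 487 against 460 in the second quantification. Library 2 went the other way, at 411 against 472, and 420 against 515 in the second. Of the 1502 windows of Aph1a-202, 46.5% also occur in Gm15429, against 23.0% of the 2764 windows of Aph1a-201, and whether this bears on the split was not tested. On the opposite strand, 194 windows of Aph1a-202 occur in Jagn1 and 542 windows of Aph1a-201 in Car14 or Jagn1, and the sources used here do not say whether the counting used strand.

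**Figure D3:**
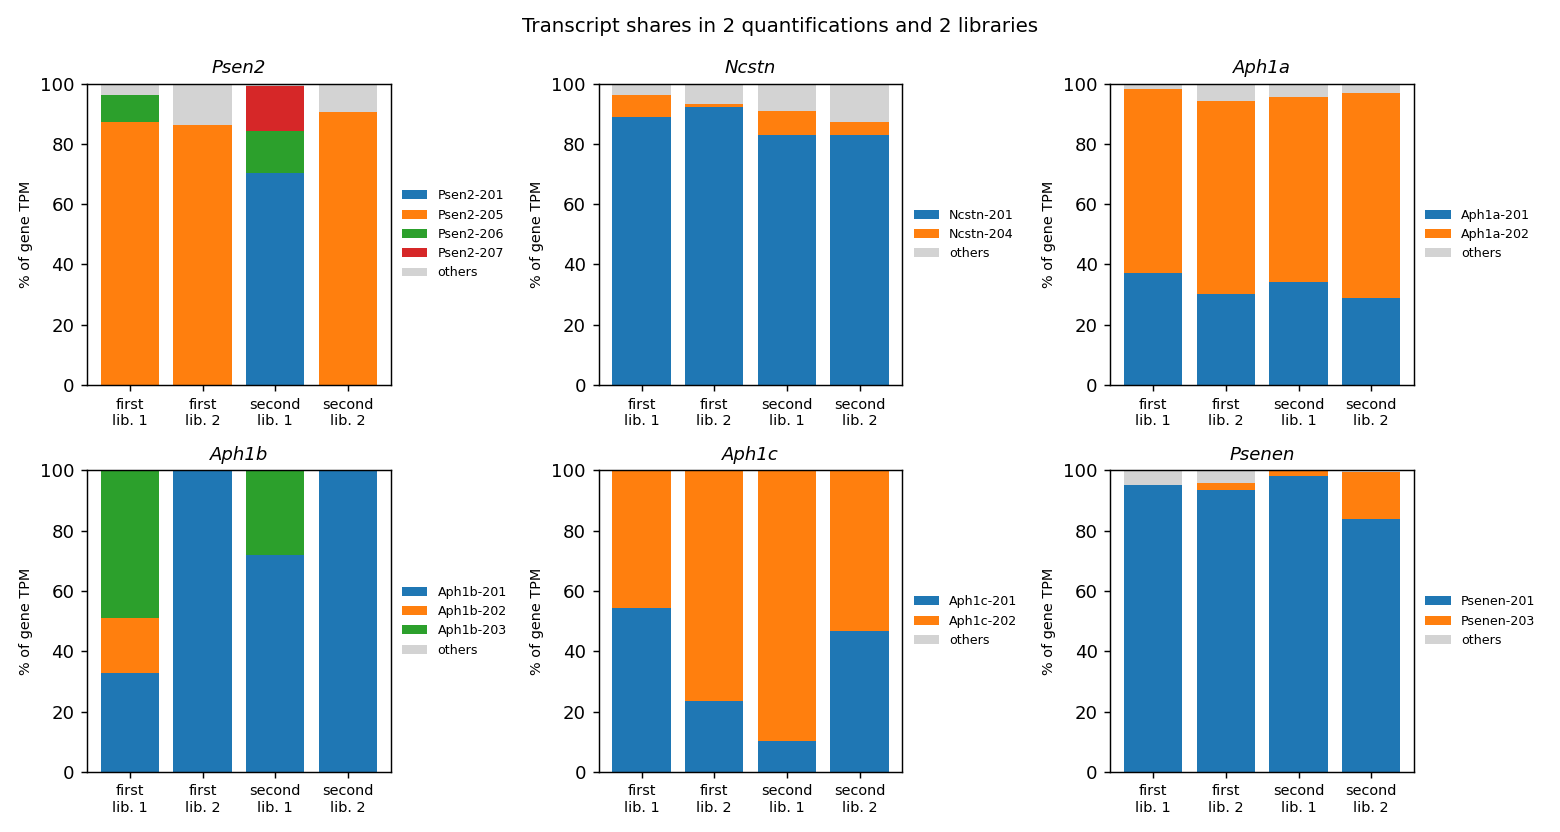
Percent of each gene's TPM held by its transcripts, as stacked bars for the 2 libraries in the first and second quantification, with grey for transcripts that did not reach 5% on average. Psenen, Ncstn and Aph1a keep 1 leading transcript throughout, whereas Psen2, Aph1b and Aph1c change with library or quantification.

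The transcript values of Psen2 changed with the quantification. In the first, Psen2-205 held 87.4 and 86.3% of Psen2 TPM and Psen2-201 was at 0 in both libraries. In the second, Psen2-201 held 70.5% in library 1 and 0.162% in library 2, while Psen2-205 was at 0% in library 1 and 90.6% in library 2. Psen2-201, Psen2-203, Psen2-204 and Psen2-205 encode the same 448 codons and differ in where they start, so the coding product is not affected by this choice. Only 87 of the 1905 windows of Psen2-201 and 56 of the 1898 windows of Psen2-205 occur in no other Psen2 transcript. In the first quantification the posterior mean count, the mean over sampled read assignments, of Psen2-205 was 75.0 with a posterior SD of 23.7 in library 1 and 69.2 with 22.3 in library 2. Psen2-201 had posterior means of 27.1 with 20.7 and 16.0 with 14.9, and Psen2-204 had 23.9 with 21.4 and 23.5 with 19.6. By that measure Psen2-205 held 34.0 ± 2.49% of Psen2 TPM, and the start site of Psen2 RNA was not settled. For Psen2 as a whole gene the posterior SD was 0 counts in both libraries. Psen2-206, a transcript with a retained intron, and Psen2-207, a processed transcript, reached 13.8 and 15.1% in library 1 of the second quantification and 0% in library 2.

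The transcript shares of Aph1b and Aph1c rested on few counts and changed with library or quantification. Only 158 of the 4811 windows of Aph1b-201 and 350 of the 5003 windows of Aph1b-203 occur in no other Aph1b transcript. How far few counts or shared sequence bear on these shares was not tested. Aph1b-201, with 257 codons, held 32.7% of Aph1b TPM in library 1 and 100% in library 2, and 71.8 and 100% in the second quantification. Aph1b-203, annotated as a target of nonsense-mediated decay, held 49.1 and 0%, and 28.2 and 0% in the second, with 41.4 expected counts and a posterior SD of 15.3 in library 1. Aph1b-202 held 18.2 and 0%, on 1.73 expected counts in library 1. Aph1c-202, with 258 codons, held 45.7 and 76.7% of Aph1c TPM, and 89.8 and 53.4% in the second. The remainder was Aph1c-201, a transcript of 715 bases against 5205 for Aph1c-202, whose 3.51 expected counts in library 1 made up 54.3% of Aph1c TPM.

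Several genes lie against the 6. Copa, a coat protein gene of Golgi vesicles, overlaps the start of Ncstn by 267 bases on the other strand and stood at 37.7 and 38.6 TPM, with a log2 ratio between libraries of -0.12 (-0.18 to -0.06). Car14, a membrane carbonic anhydrase, overlaps Aph1a by 521 bases on the other strand and stood at 41.9 and 33.4 TPM. Its log2 ratio of -0.47 (-0.58 to -0.36) lay outside the interval of Aph1a. U2af1l4, a splicing factor, overlaps Psenen by 327 bases on the other strand and stood at 21.2 and 24.3 TPM, and at 41.4 and 44.0 TPM in the second quantification. After centring, that is 1.94 times the first, where Psenen itself moved by 1.07. Gm49396 overlaps Psenen by 284 bases and stood at 0.72 and 0.41 TPM. The antisense genes Gm31728, over Psen2, and Gm17098, over the start of Aph1c by 28 bases, had 0 expected counts in both libraries. BC028528, Gm10647 and Igflr1, within 2000 bases of Aph1a, Aph1b and Psenen, were below TPM 1. In the promoter windows of the 6 genes (8 windows of 250 bases before the RefSeq starts, both strands searched), TATAAA occurred in none, against 12.4% of all windows. CCAAT occurred in those of Aph1a and Aph1c and in 1 of the 2 of Psenen, against 33.8%. GGGCGG occurred in those of Aph1a, Aph1b and Aph1c and in the window before Psen2-205, against 32.7%.

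Detection of related proteases, cofactors and substrates is read against the 44.5% of all protein-coding genes detected in both libraries. Of the 5 signal peptide peptidases, presenilin-related proteases that cut within the membrane, 4 were detected in both libraries. Sppl2a was highest at 28.4 and 33.0 TPM, H13, the signal peptide peptidase itself, stood at 12.9 in both, Sppl3 at 7.31 and 7.50, and Sppl2b at 4.21 and 4.61. Sppl2c had 0 counts. Psen2 was thus lower than each detected gene of that list in both libraries.

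Of 8 genes linked to gamma-secretase trafficking or activity, 7 were detected. Bsg, which encodes basigin, a membrane partner also known as a chaperone of lactate transporters, stood at 343 and 317 TPM. Tmed10, a cargo receptor of the early secretory pathway, stood at 45.6 and 47.6 TPM, and Rer1, a retention receptor for unassembled subunits, at 21.8 and 25.8 TPM. Gsap was below TPM 1, at 0.23 and 0.17. The median log2 ratio of the 7 genes was -0.07, against 0.01 over the protein-coding genes with mean TPM of at least 1 and -0.12 over the 4 detected gamma-secretase genes.

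Among 23 substrates, 12 (52.2%) were detected in both libraries, near the share of all protein-coding genes, and 10 were below TPM 1 in both. Aplp2, a relative of the amyloid precursor protein, was highest at 38.5 and 48.8 TPM. Lrp1 and Sorl1, lipoprotein and sorting receptors, stood at 17.0 and 13.8 TPM and at 14.9 and 14.1 TPM, and Flt1, an endothelial growth factor receptor, at 10.3 and 9.90 TPM. The 4 Notch receptors were all low, with Notch1 at 2.06 and 1.94 TPM, Notch2 at 2.95 and 2.79, Notch3 at 3.02 and 4.15, and Notch4 at 2.20 and 3.0. Dcc, a netrin receptor of growing axons, had 0 counts. The substrates had a median log2 ratio of -0.15 over the 13 members averaging TPM 1 or more.

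Of 18 Notch ligands, transducers and targets, 10 (55.6%) were detected. Jag2, a ligand, had the highest mean of the list in the first quantification, at 8.33 and 14.5 TPM from 861 and 878 expected counts. Its counts were close while its TPM was not, as the effective length fell from 3401 to 2310 bases. Rbpj, the DNA-binding transducer, stood at 7.32 and 7.58 TPM. In the second quantification Rbpj stood at 10.3 and 13.5 TPM, 1.65 times the first after centring, and its mean of 11.9 TPM was then above that of Jag2 at 11.5 TPM. The target Hes1 stood at 3.34 and 4.63 TPM. Of the 12 genes of the list with mean TPM of at least 1, 1 differed by 1.5-fold between libraries, against 3.07% of all protein-coding genes at that level, so nothing is read from it. It was Nrarp, a target that feeds back on the pathway, at 85 and 128 expected counts and a log2 ratio of 0.63 (0.22 to 1.04). The endothelial markers Pecam1, Cdh5, Egfl7 and Kdr stood at 10.4 ± 0.537, 9.88 ± 0.354, 12.4 ± 2.16 and 4.26 ± 0.141 TPM in the same libraries. The part of endothelium in the levels of Notch genes and Flt1 was not tested.

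**Figure D4:**
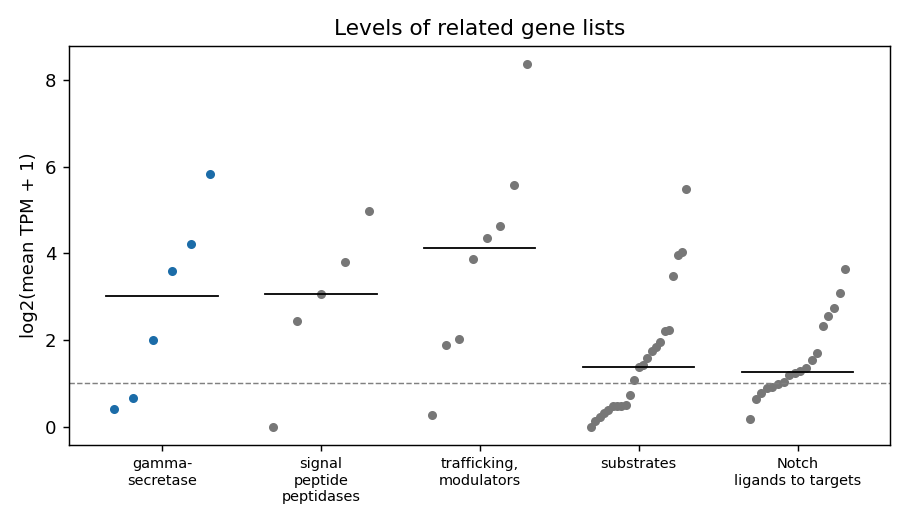
Mean TPM of each gene as log2(TPM + 1), with blue points for the gamma-secretase genes, grey points for 4 related lists and a black line for the median of each list. The dashed line marks TPM 1, and Psenen is the highest blue point at 56.2 TPM.

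Among the 54 genes of these lists, likeness was measured as the largest difference in log2(TPM + 1) over 4 values, from 2 libraries in 2 quantifications. The nearest to Psen2 was Erlin2, at 0.17, and the nearest to Ncstn was H13, at 0.24. For Aph1a it was Ubqln1, at 0.25, and for Psenen it was Tmed10, at 0.28. For the low genes Aph1b and Aph1c it was Scn2b and Cdh2, at 0.11 and 0.16, which says little, since many genes lie near 0 on this scale.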

How the data were processed

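Total RNA was sequenced from 2 gastrocnemius samples. Each library was made, per the labels, from 300 ng of column-purified RNA with ERCC spike-ins and a directional kit. The authors used mm10 and GENCODE M21 and derived the first quantification from a transcriptome alignment, per the deposited read-me. The sources used here name no tool or version. The authors deposited 2 quantifications. The first has the columns RSEM writes, per the file headers: expected counts, in which the authors shared reads that fit several transcripts among them, TPM, and posterior means of both. The second has the columns kallisto writes, per the file headers: estimated counts and TPM per transcript, summed here by gene. The authors scaled deposited TPM to all table entries, with spike-ins among them. The percent of gene TPM per transcript was computed by the authors in the deposited tables and recomputed here.

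The 6 genes and the related lists were chosen with earlier results of these data known. All 55536 gene identifiers matched the annotation. Another 26248 entries with numeric identifiers held 1 and 0 counts and were left out, and 86 genes were matched in the first quantification only. Spike-ins (96) held 0.479% and 0.504% of counts. Levels used deposited TPM. For ratios between libraries, expected counts were rounded to whole numbers and combined with TMM factors from edgeR 4.0.16 over all genes, and exact Clopper-Pearson intervals (scipy 1.17.1). Alternatives were DESeq2 1.42.0 size factors, totals, spike-ins, TPM, a filter at 1 CPM and the second quantification. The scaling and intervals were tested on counts simulated with counting error only, which lack the further spread seen between these libraries. Shared sequence was counted as 100-base windows of annotated transcripts on the same strand. Named were every gene of the 6, their transcripts with at least 5% of gene TPM on average in either quantification, genes overlapping them or within 2000 bases, any gene of the related lists, and for each of the 6 the listed gene nearest in level. Jagn1, the pseudogenes Gm15429 and Gm12396 and the transcripts Psen2-203, Psen2-204, Psen2-208, Psen2-209 and Psen2-211 lie outside that rule and were chosen after their values were seen.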

Additional observations from a re-analysis of the deposited data

How the results depend on the processing

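Of 162 alternative values for 38 results, 117 stayed within 1 SD of the main value, or for ratios between libraries within the counting interval, and 45 moved further. With n = 2 the SD is small and itself poorly known. Leaving out 1 of 2 libraries always gives a value within 1 SD of their mean. Those alternatives could therefore not count as moved, and they say nothing about stability. No ratio between libraries reached 1.5-fold under any of the scalings or with TMM-scaled counts of the second quantification. TPM of the second quantification was not among these alternatives. There Aph1c stood at 0.167 TPM in library 1 and 0.350 TPM in library 2, more than 1.5-fold apart. With deposited TPM the ratios became 0.0893 for Ncstn, 0.168 for Aph1a and 0.0265 for Psenen, and that of Aph1c turned to -0.22. No paired analysis was possible because there is 1 group.

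With the second quantification, levels were 3.12 TPM for Psen2, 15.5 for Aph1a, 0.259 for Aph1c and 57.9 for Psenen. The ratio of Psenen to Ncstn was then 5.28, of summed APH-1 genes to Ncstn 1.48 and of Aph1b to Aph1c 2.27, and Aph1b held 3.33% of APH-1 TPM. Transcript shares were 45.3% for Psen2-205, 82.9% for Ncstn-201, 64.8% for Aph1a-202 and 91.0% for Psenen-201, and Aph1a ranked above 70.6% of protein-coding genes. With TPM rescaled over nuclear protein-coding genes, which leaves abundant noncoding and mitochondrial RNA out of the total, levels were 7.13 TPM for Psen2, 26.7 for Ncstn, 42.3 for Aph1a, 1.41 for Aph1b, 0.783 for Aph1c and 135 for Psenen, so Aph1b passed TPM 1. Ranked among all protein-coding genes above 0 TPM, Psen2 lay above 51.2%, Ncstn 75.6%, Aph1a 83.2% and Psenen 94.3%, since low genes then enter the ranking.

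The posterior mean TPM was added as an alternative after seeing the data. It gave 3.94 TPM for Psen2, 0.710 for Aph1b, 0.395 for Aph1c and 55.4 for Psenen, and a ratio of Ncstn to Psen2 of 2.83. APH-1 shares were 94.2% for Aph1a, 3.75% for Aph1b and 2.10% for Aph1c, and transcript shares 34.0% for Psen2-205, 86.7% for Ncstn-201, 58.2% for Aph1a-202 and 90.0% for Psenen-201. Leaving out each replicate in turn gives the values of the single libraries: the share of Aph1b-201 then ran from 32.7 to 100%, and that of Aph1c-202 from 45.7 to 76.7%. The cause of the other moves was not tested. The values of Aph1b, Aph1c and the transcripts of Psen2 rest on few counts, and 2 libraries of 1 group allow no test.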

Other observations

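Noncoding classes of transcript made up a small part of most of the 6 genes. Retained-intron and processed transcripts held 5.11 ± 2.13% of Ncstn TPM, 2.78 ± 1.21% of Aph1a TPM and 0.701 ± 0.280% of Psenen TPM in the first quantification, and 10.9 ± 2.67%, 3.79 ± 0.866% and 0.209 ± 0.295% in the second. For Psen2 they held 12.6% in library 1 and 5.80% in library 2, and 29.5 and 4.72% in the second quantification. By TPM library 1 was thus the higher for Psen2 in both quantifications, and library 2 the higher for Ncstn in both. For Psen2 the difference rests on few reads. In the first quantification Psen2-206, Psen2-208 and Psen2-211 had 2.89, 2.62 and 1.52 expected counts in library 1. In library 2 only Psen2-211 had any, at 8.63. Before division by length, library 2 was thus the higher for Psen2 in that quantification.

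By posterior mean TPM, 1 very short Psen2 transcript held a share with almost no reads behind it. Psen2-209, of 232 bases, had a posterior mean count of 0.12 in both libraries, yet held 6.75 and 8.09% of Psen2 TPM by that measure and 0% in both quantifications otherwise.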
